A study of Mus musculus with 6 samples.

Results

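The 10 genes described here encode chaperones and proteases that work inside mitochondria: *Hspd1*, *Hspe1*, *Hspa9*, *Trap1*, *Lonp1*, *Clpp*, *Clpx*, *Afg3l2*, *Phb* and *Phb2*. They were chosen by name, and each was matched by its symbol to a row of the deposited table, so all 10 were found among 19445 gene loci. The RNA came from inguinal white adipose tissue (iWAT), the subcutaneous fat pad of the groin, of 3 transgenic mice and 3 wild-type littermates, with 1 library per mouse. The transgenic mice carried an *Hlx* cDNA driven by the aP2 (*Fabp4*) promoter, which is active in adipocytes and also in some macrophages. All 6 mice were labelled male, were 12 weeks old and were untreated. The line was made in C57BL/6 × SJL hybrid embryos and then backcrossed to C57BL/6 for at least 3 generations. *Hlx* is a homeobox transcription factor. The comparison asks how the protein-care machinery of mitochondria was expressed when white fat carried the transgene. Expression was measured as FPKM, a read density corrected for transcript length and for the number of mapped reads.

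Most mitochondrial proteins are made in the cytosol and enter the organelle unfolded, so they have to be folded, assembled and later removed there. In the matrix, mtHsp70 (*Hspa9*) pulls incoming chains through the import channel, and the Hsp60 cage (*Hspd1*) with its lid Hsp10 (*Hspe1*) folds them. Lon (*Lonp1*) and the ClpXP pair (*Clpx* and *Clpp*) degrade damaged or surplus matrix proteins, while *Afg3l2* encodes a protease of the inner membrane that faces the matrix. The prohibitins (*Phb* and *Phb2*) form rings in the same membrane that hold such proteases. Brown and beige fat cells are rich in mitochondria and white fat cells are not, so the levels of these genes are informative when the fat type of a depot differs.

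Of the 10 genes, 8 were higher in transgenic than in wild-type iWAT and none was lower (limma, adjusted p under 0.05). The background was 11.6% called higher and 7.03% called lower among 11692 tested loci. At an unadjusted p under 0.05, 9 of the 10 genes were higher and 0 were lower, and 19.4% of all tested loci were higher by that measure. The rises were moderate. The median log2 fold change of the 10 genes was 0.69, against -0.01 for all tested loci, and only *Afg3l2* reached a 2-fold ratio of mean FPKM. *Hspe1* and *Phb2* did not pass the test.

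The libraries were checked first. *Hlx* averaged 96.2 ± 15.3 FPKM (SD, n = 3) with the transgene and 7.45 ± 0.637 FPKM (SD, n = 3) without it, in the direction the labels give. The adipocyte marker *Adipoq* was abundant in every mouse, with 1363 ± 89.0 FPKM in the transgenic group against 2481 ± 415 FPKM in the controls. *Ucp1*, the uncoupling protein of brown fat, had 591 ± 47.2 and 36.9 ± 20.2 FPKM. The label of sex is not borne out by the RNA, since *Xist*, which is made from the inactive X chromosome, had 20.2 to 33.6 FPKM in the 6 libraries and none of 28 loci on the Y chromosome was above 0. Both genotypes were alike in this. Skeletal muscle RNA was uneven, with 571 FPKM summed over 7 muscle markers in transgenic replicate 2 against 78.2 FPKM in transgenic replicate 1, 109 FPKM in transgenic replicate 3 and 5.45 to 113 FPKM in the wild-type mice. The log2 fold changes of all 7 were positive, from 0.85 to 2.62. No muscle marker was called by limma, and 2 had an unadjusted p under 0.05. The summed FPKM of macrophage markers was lower in transgenic mice (345 to 490) than in wild-type mice (732 to 932), and 4 of 5 markers tested were called lower. In a bulk tissue, fewer cells of a type and less RNA per cell cannot be told apart. The part of these cell types in the results below was not tested.

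Where the genes lie bears on how they were measured, so the sequences of partner genes are shown before the values. *Hspd1* and *Hspe1* lie head to head on chromosome 1, on opposite strands, and the facing RefSeq starts are 215 bases apart (chr1:55087933-55088147 of GRCm38.p6, the build also called mm10). This stretch has 70.2% G and C and 24 CpG dinucleotides, and GENCODE places first exons of longer *Hspd1* transcripts in it. Windows of 250 bases before each RefSeq start were searched on both strands for 7 motifs in 8 of the 10 genes, which had 9 windows because *Hspd1* has an outer and an inner start. The letters searched were AAGGTCA for the core of the estrogen-related receptor site, GCATGCGC for the NRF1 site, CCAAT for the CCAAT box, TGACGT for the core of the cAMP response element, CCGGAAG for the ETS site, GAANNTTC for the heat shock element and TAATTA for the homeodomain core. Pieces of 30 and 21 bases of the *Hspd1* and *Hspe1* stretch are shown because they carry the matches that both genes share, and *Trap1* is shown because it holds the same receptor core. Capitals mark the matches, and all pieces are written 5′ to 3′ on the strand named.

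Hspd1-Hspe1, chr1:55088056-55088085, plus strand: ccgttctaGAACCTTCCGGAAGgccccgcg
Hspd1-Hspe1, chr1:55088093-55088113, plus strand: tgggtgaAAGGTCAagtggcg
Trap1, chr16:4077940-4077960, minus strand: gagatccAAGGTCAaaaagta

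The first line holds a heat shock element that overlaps a pair of ETS sites on opposite strands, and the other lines hold the receptor core. That core was present before 3 of the 8 genes, of which *Hspd1* and *Hspe1* share a single copy, and in 4.08% of all windows. The heat shock element was present before *Hspd1* and *Hspe1*, again as a shared copy, and in 6.69% of all windows. ETS sites lay before *Hspd1*, *Hspe1* and *Phb2* (6.91% of all windows) and the cAMP response core before *Lonp1* and *Trap1* (6.47%). For *Hspd1* all these matches lie before its inner start, and the window before its outer start held none of the 7 motifs. The pieces shown also lie inside the GENCODE range of *Hspd1* and the deposited range of *Hspe1*. The word before therefore refers only to the RefSeq starts searched. None of the 8 genes had the homeodomain core, but only 4.84% of all windows held it, so this absence is near the background. These letters are not the Hlx motif of the authors' own search, so their absence does not show that Hlx sites are absent. A match is a description of the letters in the window and does not show that a factor binds there.

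The bases before *Clpp* and *Clpx*, and before *Phb* and *Phb2*, are shown because each pair codes for partners in a complex and the results below compare them. Unlike *Hspd1* and *Hspe1*, these partners lie on different chromosomes.

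Clpp, chr17:56990114-56990263, plus strand: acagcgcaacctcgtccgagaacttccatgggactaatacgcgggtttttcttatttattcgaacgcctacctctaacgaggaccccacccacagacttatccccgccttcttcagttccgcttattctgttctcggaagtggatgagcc
Clpx, chr9:65294110-65294259, plus strand: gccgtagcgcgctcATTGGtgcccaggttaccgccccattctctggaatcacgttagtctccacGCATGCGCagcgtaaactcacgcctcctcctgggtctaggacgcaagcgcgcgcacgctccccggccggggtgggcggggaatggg
Phb, chr11:95666807-95666956, plus strand: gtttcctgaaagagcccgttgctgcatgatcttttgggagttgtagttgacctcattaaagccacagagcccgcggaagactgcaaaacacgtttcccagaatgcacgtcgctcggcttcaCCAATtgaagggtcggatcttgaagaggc
Phb2, chr6:124712179-124712288, plus strand: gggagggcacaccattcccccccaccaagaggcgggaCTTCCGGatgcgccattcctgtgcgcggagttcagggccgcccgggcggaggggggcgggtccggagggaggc

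The *Clpx* piece holds a CCAAT box, read from the opposite strand, and an NRF1 site, while the *Clpp* piece holds none of the 7 motifs. A CCAAT box also lies before *Phb*, and the *Phb2* piece holds an ETS site on the opposite strand. The CCAAT box is common, with a match in 33.8% of all windows, and the NRF1 site was found in 2.26%. The G and C content was 51.3% before *Clpp* and before *Phb*, 66.7% before *Clpx* and 74.5% before *Phb2*.

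*Hspa9*, the mtHsp70 of the import motor, was the most abundant of the 10 transcripts in each of the 6 mice. It had 533, 395 and 438 FPKM in the transgenic mice and 295, 241 and 239 FPKM in the wild-type mice. The groups did not overlap, and the lowest transgenic mouse stood well above the highest control. The log2 fold change was 0.81 (SE 0.15, limma adjusted p = 0.0122), and 0.47 (adjusted p = 0.029) with quantile normalization. *Hspa9* made up 33.2 to 35.5% of the FPKM summed over the 10 genes in transgenic mice and 29.8 to 32.0% in wild-type mice. The locus spans chr18:34937414-34954351 on the mm10 build and the principal transcript has 17 exons.

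*Hspd1*, the Hsp60 folding cage (chr1:55077789-55087932), had 151, 121 and 138 FPKM in transgenic mice and 93.3, 74.3 and 79.5 FPKM in wild-type mice. Every transgenic mouse was above every control, with a log2 fold change of 0.72 (SE 0.12, limma adjusted p = 0.00951). *Hspe1*, its lid (chr1:55088013-55091713), had 92.4, 56.5 and 87.3 FPKM against 51.1, 61.4 and 35.9 FPKM. The groups of *Hspe1* overlapped because transgenic replicate 2 lay below wild-type replicate 2. Its mean ratio of 1.59 was near the 1.66 of *Hspd1*, but its mice were more scattered, with a coefficient of variation of 24.7% in transgenic and 25.9% in wild-type mice. The log2 fold change of *Hspe1* was 0.66 (95% interval 0.08 to 1.24) with a limma adjusted p of 0.103, and it passed in 1 of 13 alternative settings, without transgenic replicate 2 (0.88, adjusted p = 0.0425). With other mice left out it was as low as 0.45, without wild-type replicate 3 (adjusted p = 0.257). The annotation names 6 pseudogenes after *Hspe1* and 5 after *Hspd1* elsewhere in the genome, so reads could be split between copies.

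*Trap1* codes for the mitochondrial member of the Hsp90 family. Its FPKM was 186, 149 and 154 in transgenic mice and 113, 95.8 and 103 in wild-type mice. The groups did not overlap, and the log2 fold change was 0.64 (SE 0.12, limma adjusted p = 0.0122). The listed range, chr16:4032885-4077861, also covers *Dnase1*, which was at most 0.0376 FPKM in any mouse.

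**Figure D1:**
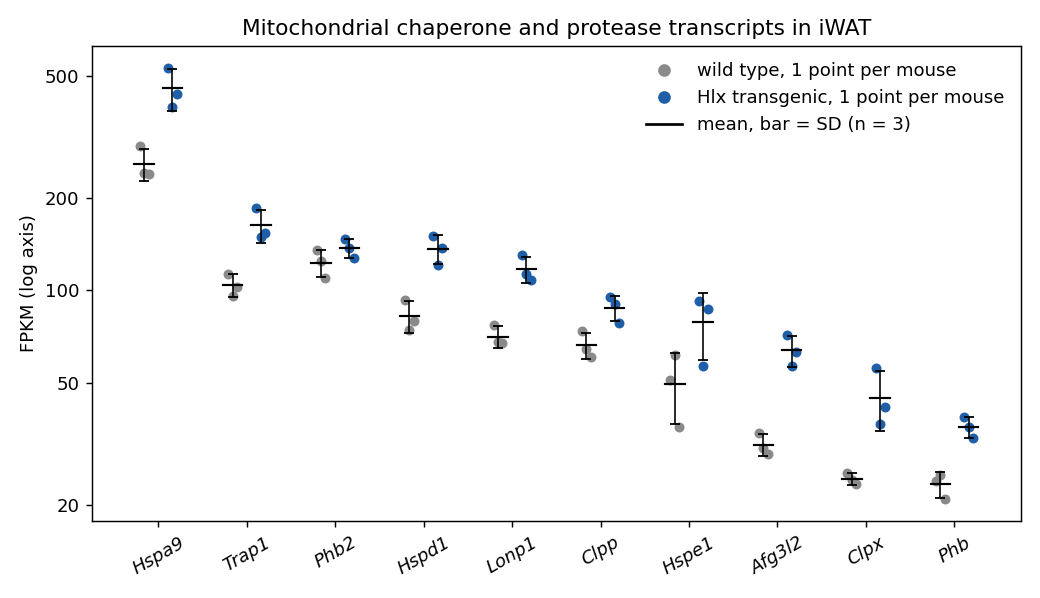
FPKM of the 10 mitochondrial chaperone and protease genes in each mouse, on a log axis; points are mice (3 transgenic, 3 wild-type), short lines are group means and bars are SD. *Hspa9* is highest in all 6 mice, the points of 8 genes separate by genotype, and those of *Hspe1* and *Phb2* overlap.

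Among the matrix proteases, *Lonp1*, which codes for the Lon protease that clears oxidised proteins and trims the enzymes and factors of the matrix, had 130, 113 and 108 FPKM in transgenic mice and 77.2, 67.8 and 67.3 FPKM in wild-type mice. It was the fifth most abundant of the 10 genes in all 6 mice, and its groups did not overlap. The log2 fold change was 0.72 (SE 0.10, limma adjusted p = 0.00532). *Rpl36*, a ribosomal gene inside the listed range (chr17:56613156-56626964), had 11.9 ± 8.04 FPKM in the transgenic group against 22.5 ± 18.3 FPKM in the controls and did not pass the test (log2 fold change -0.58, limma adjusted p = 0.664).

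*Clpx* and *Clpp* encode the partners of another matrix protease: ClpX is the hexameric unfoldase that selects substrates, and ClpP is the barrel with the active sites. *Clpx* (chr9:65294285-65330658) had 55.7, 36.7 and 41.8 FPKM in transgenic mice and 25.5, 24.2 and 23.4 FPKM in wild-type mice. *Clpp* (chr17:56990263-56996371) had 94.8, 90.1 and 78.4 FPKM against 73.5, 64.4 and 60.8 FPKM. Neither gene's groups overlapped, but the sizes differed. The log2 fold change of *Clpx* was 0.83 (SE 0.15, limma adjusted p = 0.0112) and that of *Clpp* was 0.40 (SE 0.11, limma adjusted p = 0.0459). The call of *Clpp* lies at the threshold: it held in 6 of 13 alternative settings, and the adjusted p was 0.115 without transgenic replicate 1, 0.0927 without transgenic replicate 2, 0.0562 without transgenic replicate 3, 0.122 without wild-type replicate 2 and 0.138 without wild-type replicate 3. Within each mouse the ratio of *Clpp* to *Clpx* FPKM was 2.01 ± 0.395 (SD, n = 3) in transgenic and 2.72 ± 0.150 (SD, n = 3) in wild-type iWAT. Every transgenic ratio lay below every wild-type ratio, and the difference of the log2 ratios was -0.43 (exact permutation p = 0.1, the smallest that 3 mice against 3 can give).

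*Afg3l2*, a subunit of the matrix-facing m-AAA protease of the inner membrane, changed most. It had 71.6, 56.7 and 62.9 FPKM in transgenic mice and 34.4, 30.6 and 29.3 FPKM in wild-type mice. The lowest transgenic mouse was 1.65 times the highest control, the widest separation of the 10. The log2 fold change was 1.00 (SE 0.11, limma adjusted p = 0.00204). *Spg7* codes for paraplegin, the subunit that joins AFG3L2 in a mixed ring, and was in the same range, with 55.2 ± 7.0 FPKM in the transgenic group against 27.7 ± 0.555 FPKM in the controls (log2 fold change 0.96, SE 0.10, limma adjusted p = 0.00175). The ratio of *Afg3l2* to *Spg7* was 1.16 ± 0.0161 (SD, n = 3) in transgenic and 1.13 ± 0.0842 (SD, n = 3) in wild-type iWAT, and the difference of the log2 ratios was 0.03 (exact permutation p = 0.6). The deposited table lists *Afg3l2* and *Tubb6* under the same range, chr18:67390685-67449213. *Tubb6*, a tubulin gene, had 32.7 ± 8.16 FPKM in the transgenic group against 30.5 ± 4.11 FPKM in the controls and did not pass the test (limma adjusted p = 0.764).

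*Phb* and *Phb2* encode prohibitins that alternate in a ring scaffold of the inner membrane. *Phb* (chr11:95666956-95680773) had 38.7, 35.8 and 33.1 FPKM in transgenic mice and 24.0, 25.1 and 20.8 FPKM in wild-type mice. *Phb2* (chr6:124712269-124716951) had 147, 138 and 127 FPKM against 135, 125 and 110 FPKM. The groups of *Phb* were apart, while those of *Phb2* overlapped. The log2 fold change of *Phb* was 0.60 (SE 0.10, limma adjusted p = 0.00844) and that of *Phb2* was 0.16 (95% interval -0.09 to 0.41, limma adjusted p = 0.323). With quantile normalization *Phb2* had a log2 fold change of -0.03, so no direction is given for it. The ratio of *Phb* to *Phb2* FPKM was 0.261 ± 0.00219 (SD, n = 3) in transgenic mice against 0.190 ± 0.0118 (SD, n = 3), and every transgenic ratio was above every control. On the log2 scale the 3 transgenic ratios were -1.90, -1.91 and -1.91 and the wild-type ratios were -2.44, -2.27 and -2.35, a difference of 0.44 (exact permutation p = 0.1).

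**Figure D2:**
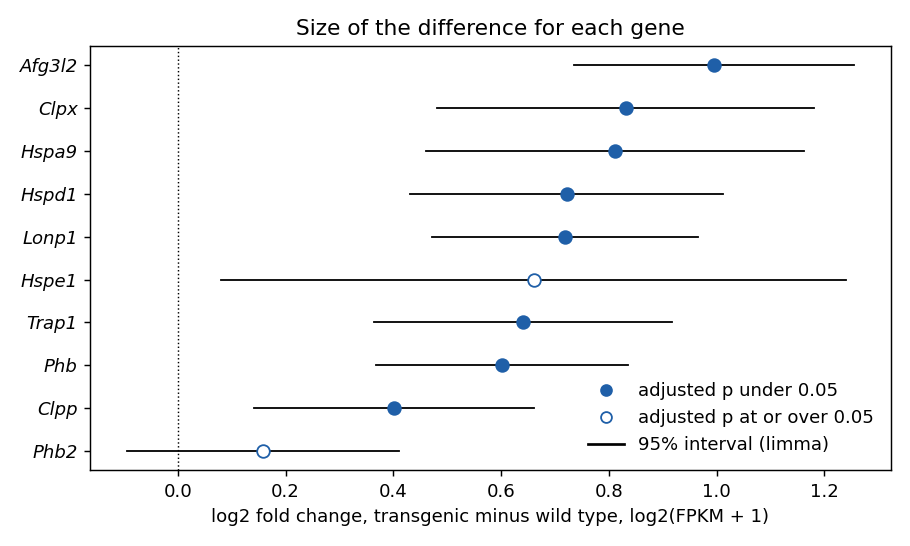
Log2 fold change (transgenic minus wild-type, log2(FPKM + 1) scale) of the 10 genes with 95% intervals from limma, n = 3 mice per genotype; filled points have an adjusted p under 0.05. *Afg3l2* has the largest value, 1.00, and the interval of *Phb2* includes 0.

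The mice of a genotype kept a similar order from gene to gene. Transgenic replicate 1 was the highest of the 3 transgenic mice for all 10 genes, and wild-type replicate 1 was the highest control for 8. The summed FPKM of the 10 genes was 1499, 1191 and 1269 in transgenic mice and 922, 809 and 769 in wild-type mice. Transgenic replicate 1 also had the highest column total, 542096 FPKM, of a range that began at 466059. As a share of all FPKM the 10 genes took 0.277, 0.231 and 0.252% in transgenic and 0.178, 0.171 and 0.165% in wild-type mice, so the groups stayed apart on that scale too. Of all tested loci, 22.8% had every transgenic mouse above every control, and 8 of these 10 genes did. For each of the 8, the exact permutation test gave p = 0.1, the smallest possible here, and for *Hspe1* and *Phb2* it gave p = 0.2.

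The order of levels was much the same in both genotypes. *Hspa9* stood first and *Trap1*, *Phb2*, *Hspd1* and *Lonp1* took the next places, while *Phb* and *Clpx* were at the bottom. *Phb2* was second in wild-type mice and *Trap1* was second in transgenic mice. In transgenic iWAT *Phb2* (137 ± 9.68 FPKM) and *Hspd1* (136 ± 14.9 FPKM) did not differ beyond their spread, and in wild-type iWAT *Clpx* (24.3 ± 1.07 FPKM) and *Phb* (23.3 ± 2.2 FPKM) did not either. These levels are per transcript length, which allows a rough comparison between genes. Length correction does not remove the effect of pseudogene copies or overlapping genes, so the order between genes is approximate.

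In 3 of the pairs examined, a mitochondrial gene was compared with a relative that works in another compartment, and none of these relatives passed the test. *Hspa8*, the cytosolic Hsp70, had 239 ± 19.4 FPKM in the transgenic group against 224 ± 19.2 FPKM in the controls (log2 fold change 0.09, limma adjusted p = 0.572), and *Hspa9* exceeded it 1.93 ± 0.465 fold and 1.15 ± 0.0663 fold. *Hsp90ab1*, the cytosolic relative of *Trap1*, had 820 ± 103 and 790 ± 84.8 FPKM (log2 fold change 0.05, limma adjusted p = 0.828). *Lonp2*, the peroxisomal Lon, had 96.0 ± 4.47 and 86.3 ± 5.87 FPKM (log2 fold change 0.15, limma adjusted p = 0.246), and the ratio of *Lonp1* to *Lonp2* was 1.22 ± 0.0674 against 0.822 ± 0.0682. In the wild-type mice peroxisomal *Lonp2* was above *Lonp1*, and in the transgenic mice it was below. For *Hspa9*/*Hspa8*, *Trap1*/*Hsp90ab1* and *Lonp1*/*Lonp2* the log2 ratios were higher in transgenic mice by 0.72, 0.59 and 0.56, with no overlap. In these 3 pairs the mitochondrial gene was called higher and its relative was not, so the ratios largely restate those calls. Without transgenic replicate 1 the difference of *Trap1*/*Hsp90ab1* was 0.39. Over all 7 pairs 5 had groups that did not overlap (exact permutation p = 0.1 each, 0.14 after Benjamini-Hochberg adjustment over the 7), and *Hspd1*/*Hspe1* (difference 0.06, p = 1, and -0.18 without wild-type replicate 2) and *Afg3l2*/*Spg7* (adjusted p = 0.7) did overlap.

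**Figure D3:**
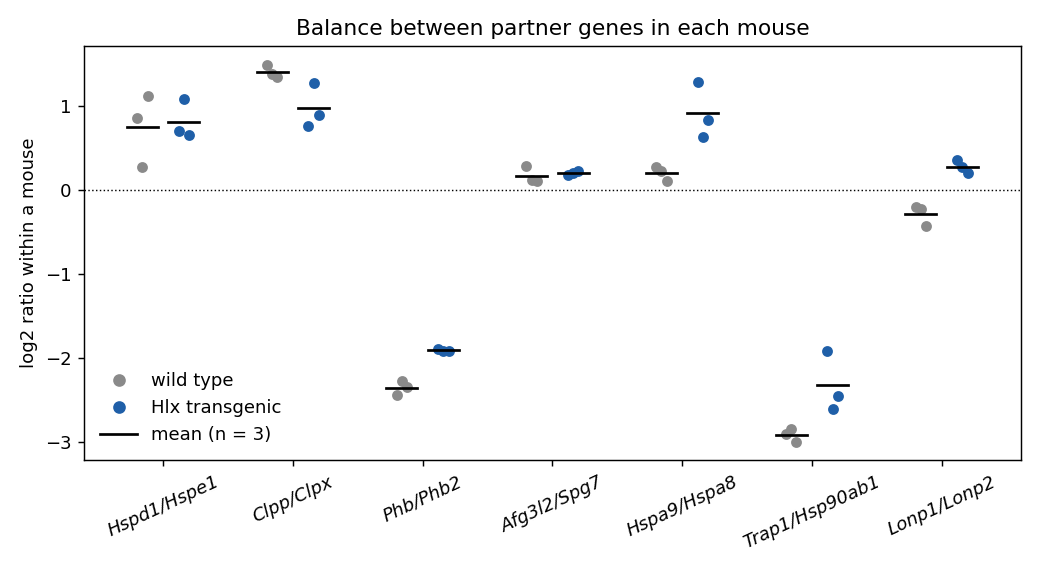
Log2 ratio of FPKM + 1 of 7 gene pairs within each mouse; points are mice and the lines are group means. Transgenic and wild-type points are apart for 5 pairs and mixed for *Hspd1*/*Hspe1* and *Afg3l2*/*Spg7*.

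The genes were then set against 20 genes of mitochondrial energy metabolism, a list that includes enzymes of the citric acid cycle, subunits of the respiratory chain and enzymes of fatty acid oxidation. Of these, 19 were higher, none was lower and 17 reached 2-fold. The gene not called was *Tomm20*, a protein import receptor that the list also counts (log2 fold change 0.11, limma adjusted p = 0.339). Their median log2 fold change was 1.33, and *Hadha* (1.93), *Ogdh* (1.82) and *Uqcrc1* (1.65) were among the largest. Within each mouse, the log2 level of each chaperone or protease gene minus the mean log2 level of the 20 genes was lower in transgenic mice, for 10 of 10 genes and without overlap (exact permutation p = 0.1 each, also after adjustment). The reference itself was higher in transgenic mice, and 95.7% of all tested loci lay below it in the same way, so the count is near the background and is not a result about these genes. The sizes are given as a description. The difference was -1.17 for *Phb2*, -0.93 for *Clpp*, -0.73 for *Phb* and -0.69 for *Trap1*, and was smallest for *Afg3l2* at -0.33. The 10 differences share 1 reference and are therefore not independent. *Hspa9* was above the mean of the energy genes by 0.35, 0.23 and 0.32 in wild-type mice and below it by -0.19, -0.24 and -0.21 in transgenic mice.

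**Figure D4:**
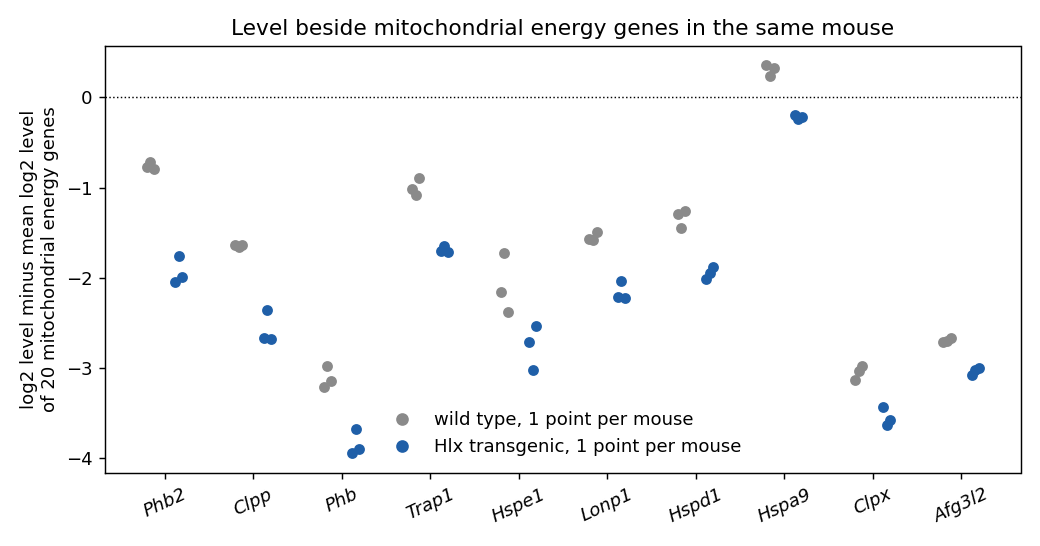
Log2 level of each of the 10 genes minus the mean log2 level of 20 mitochondrial energy genes in the same mouse; points are mice. Every transgenic point lies below every wild-type point of the same gene, as was so for 95.7% of all tested loci.

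Genes that assist these chaperones and proteases were examined as lists. Of 9 co-chaperones and assembly factors tested, 6 were higher and none fell (median log2 fold change 0.47), and 3 were higher without wild-type replicate 2 or without wild-type replicate 3. *Clpb*, a mitochondrial disaggregase, had 58.9 ± 11.3 FPKM in the transgenic group against 25.3 ± 2.06 FPKM in the controls (log2 fold change 1.18, limma adjusted p = 0.0027). *Dnaja3* and *Grpel1*, helpers of mtHsp70, had log2 fold changes of 0.94 and 0.57. Of 15 other mitochondrial proteases and peptidases, 8 were higher and none was lower (median 0.52). The list and its count also include *Lace1*, an AFG1-like ATPase of mitochondria that is not itself a protease. *Lace1* had 40.7 ± 3.62 FPKM in the transgenic group against 12.8 ± 1.19 FPKM in the controls (log2 fold change 1.60, limma adjusted p = 0.000353). *Mipep* and *Pmpcb*, which cut the targeting peptides of imported proteins, had log2 fold changes of 1.10 and 1.04. The other 7 did not pass, with log2 fold changes from -0.07 (*Oma1*, an inner membrane protease) to 0.26 (*Yme1l1*, the i-AAA protease). Of 8 substrates and clients of the proteases and prohibitins, 7 were higher, and 4 were higher without wild-type replicate 2 or without wild-type replicate 3. *Alas1*, the heme synthesis enzyme that Lon degrades, had 190 ± 26.3 FPKM in the transgenic group against 90.4 ± 28.5 FPKM in the controls (log2 fold change 1.10, limma adjusted p = 0.0177). The call of *Alas1* was lost without transgenic replicate 1 (adjusted p = 0.0558) and without wild-type replicate 3 (adjusted p = 0.0635). *Tfam*, the packaging factor of mitochondrial DNA, was at 0.19 on the log2 scale and did not pass (adjusted p = 0.112). *Opa1*, the fusion protein that *Yme1l1* and *Oma1* process, had a log2 fold change of 0.84. This list overlaps that of the energy genes, with *Cox4i1* in both. *Cox4i1*, a subunit of cytochrome c oxidase, had a log2 fold change of 0.84 (limma adjusted p = 0.013), and its call was lost without the filter on low values (0.062), without wild-type replicate 2 (0.0532) and without wild-type replicate 3 (0.0559).

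Chaperones outside mitochondria did not pass the test with all mice. Of 17 cytosolic chaperones tested, 0 were higher and 0 lower by limma with all mice, 1 was higher without wild-type replicate 2 (*Cryab*, adjusted p = 0.0175) and 1 was lower with quantile normalization. In the test with all mice 2 had an unadjusted p under 0.05 (*Cryab*, log2 fold change 0.85, and *Bag3*, 0.20), with a median of 0.05. Of 11 chaperones of the endoplasmic reticulum 0 were called by limma, and 1 had an unadjusted p under 0.05 (*Hyou1*, 0.24), with a median of -0.04. Over all 11692 tested loci, 4230 had an unadjusted limma p under 0.05 in either direction. *Cryab*, *Bag3* and *Hyou1* were named after their values were seen. The listed cytosolic chaperones *Hspa1a*, *Hspa1b* and *Dnaja1* had no row of their own and were not tested. The same holds for *Pdia4* of the endoplasmic reticulum list.

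**Figure D5:**
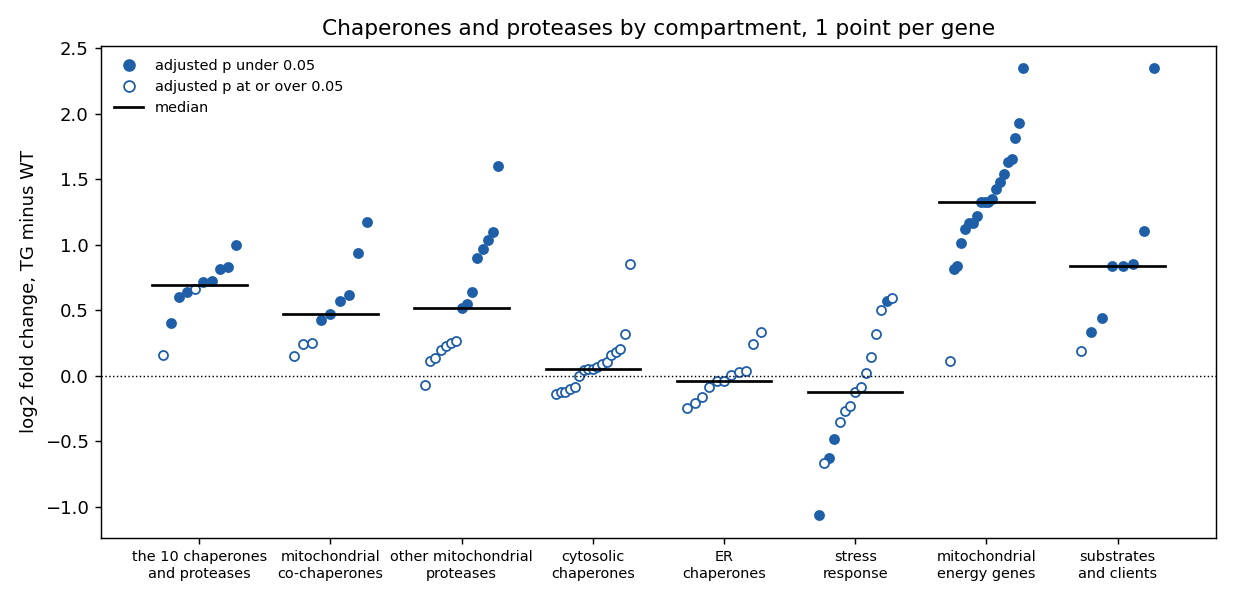
Log2 fold changes of the 10 genes and of 7 lists of related genes; each point is a gene, filled where limma's adjusted p was under 0.05, and the short lines are medians. The medians of the mitochondrial co-chaperones, other proteases, substrates and energy genes lie from 0.47 to 1.33, those of the cytosolic and endoplasmic reticulum chaperones near 0 and that of the stress response genes at -0.12.

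Genes of the mitochondrial and integrated stress responses, in which a loss of protein balance raises chaperones and amino acid enzymes, went in both directions. Of 15 tested, 1 was higher and 3 were lower, and the median was -0.12. *Fgf21* and *Gdf15*, also on the list, averaged under 1 FPKM in both groups and were not tested. The shares over all tested loci were 11.6% higher and 7.03% lower. At an unadjusted limma p under 0.05 there were 8 genes of the list, of which 5 were lower. Over all 11692 tested loci there were 4230 by that measure, of which 2267 were higher. *Cebpb* had 50.2 ± 2.06 FPKM in the transgenic group against 33.5 ± 2.11 FPKM in the controls (log2 fold change 0.57, limma adjusted p = 0.00451). *Psat1*, *Sesn2* and *Phgdh* were lower (the calls of *Sesn2* and *Phgdh* were lost without transgenic replicate 3, at adjusted p = 0.0535 and 0.077), with *Psat1*, an enzyme of serine synthesis, at 20.9 ± 2.84 and 44.6 ± 4.05 FPKM (log2 fold change -1.07, limma adjusted p = 0.00215). *Atf4*, *Atf5* and *Ddit3*, factors of the same response, did not pass the test with all mice. *Atf4* had 115 ± 17.0 and 103 ± 2.61 FPKM (log2 fold change 0.15, 95% interval -0.13 to 0.42), *Atf5* had a log2 fold change of 0.32 (limma adjusted p = 0.0918) and *Ddit3* had 0.59 (limma adjusted p = 0.0522). *Ddit3* passed with the replicate number as a block (adjusted p = 0.0457) and without wild-type replicate 2 (log2 fold change 0.74, adjusted p = 0.0382), which made 2 genes of the list higher in both settings. *Hsf1*, the heat shock factor, had 17.0 ± 1.14 and 18.6 ± 0.673 FPKM, with a log2 fold change of -0.12 (limma adjusted p = 0.302).

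Leaving out transgenic replicate 2, the library with the most muscle RNA, left 8 of the 10 genes higher, with *Hspe1* gained and *Clpp* lost. Of the 8 genes called with all mice, all but *Clpp* kept their call in all 13 alternative settings. Markers of brown and beige fat moved with the result: the summed FPKM of 6 of them was 6144 to 7934 in transgenic and 609 to 1048 in wild-type mice, and 5 were called higher. The adipocyte markers summed to 28910 to 34250 and 26260 to 33130 FPKM, which overlap, with 0 of 8 higher and 2 lower. The part of any of these in the fold changes was not tested.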

How the data were processed

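Total RNA of iWAT from 3 *Hlx* transgenic and 3 wild-type littermate mice was analysed. Per the labels, the authors used a TruSeq v2 kit, which does not mark strand. Per the submitters' processing notes, CASAVA 1.8.2, TopHat2 2.0.9, Bowtie2 2.1.0 and Cufflinks 2.2.1 were used with mm10, and the authors deposited gene FPKM values. The annotation and options are not given in the sources used here. Read counts were not used, so the depth is unknown and low values are imprecise to an unknown extent.

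A log2(FPKM + 1) value was computed for 11692 loci, those whose average passed 1 FPKM in the transgenic or the wild-type group, and was tested with limma 3.58.1 in R 4.3.3 (trended eBayes, two-sided, Benjamini-Hochberg adjustment over these loci, threshold 0.05). This scale understates the change of low genes. The procedure was tested on simulated data. Ratios within mice were tested by exact permutation over 20 arrangements, and the smallest p is 0.1. No source says whether the mice came from separate litters. The 10 genes and all lists were chosen with earlier results of these data known. Genes named beyond the 10 were up to 4 called genes with the largest changes in each list and direction, partners in ratios, *Atf4*, *Atf5*, *Ddit3*, *Hsf1* and genes used for checks, and others were named after their values were seen. Not every gene that meets this rule is reported here. List genes whose symbol was not a row of its own, or whose average did not pass 1 FPKM in either group, were left out. Promoters are from RefSeq, and loci from the deposited table were annotated with GENCODE M21. Alternatives were another pseudocount, filters, scalings, eBayes without trend, the replicate number as a block, a stricter threshold and leaving out each mouse. Figures were drawn with matplotlib 3.10.9 in Python 3.11.15.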

Additional observations from a re-analysis of the deposited data

How the results depend on the processing

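Over the 13 alternative settings at the same threshold, 7 or 8 of the 10 genes were higher and none was lower, and at an adjusted p under 0.01 there were 4. That threshold left 569 loci higher and 199 lower, against 1352 and 822. Leaving out 1 mouse gave 779 to 1277 loci higher and 327 to 885 lower: 804 higher without transgenic replicate 3, 836 without wild-type replicate 2 and 779 without wild-type replicate 3, and 466 lower without transgenic replicate 1, 327 without transgenic replicate 3, and 473, 416 and 400 without wild-type replicates 1, 2 and 3. *Phb2* reversed, to -0.0266, with quantile normalization. The median of all loci moved to -0.03 with quantile normalization and stayed at -0.01 with median-ratio scaling. Quantile normalization lowered the log2 fold change of each of the 10 genes. *Hspa9* went from 0.81 to 0.47, *Trap1* from 0.64 to 0.47 and *Hspd1* from 0.72 to 0.58. The shifts were smaller for *Clpx* (0.83 to 0.77) and *Phb* (0.60 to 0.55). Among the fold changes of the 10 genes, 121 were unchanged in call and direction, 7 lost the call (all of them *Clpp*), 1 gained it (*Hspe1*) and 1 reversed. The difference of *Afg3l2* from the energy genes was -0.28 with their median as the reference. With the replicate number as a block 8 of the 10 genes, 1230 loci in all, were higher and 656 loci were lower. Deviations of same-numbered mice from their group means were nearly uncorrelated over all tested loci (correlations 0.0129, 0.0344 and 0.0701). With 3 mice per genotype this check cannot exclude that the numbers pair the mice.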

Other observations

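The mitochondrial carrier *Slc25a39*, a client of the matrix-facing protease AFG3L2, had a log2 fold change of 0.85 (limma adjusted p = 0.0089), next to 1.00 for *Afg3l2* itself, and of 0.56 with quantile normalization. *Dnajc15*, a partner of mtHsp70 at the import motor, averaged 443 ± 32.6 FPKM in transgenic mice and 289 ± 36.6 FPKM in controls (SD, n = 3 each), with a log2 fold change of 0.62 (limma adjusted p = 0.0172) and of 0.27 (adjusted p = 0.0906) with quantile normalization. Its call was also lost without transgenic replicate 3 (0.0567) and without wild-type replicates 2 and 3 (0.0647 and 0.0648). *Sesn2* and *Phgdh*, of the stress response list, fell by 0.63 and 0.48 on the log2 scale (limma adjusted p = 0.0133 and 0.0252). The call of *Sesn2* was lost without transgenic replicate 3 (adjusted p = 0.0535), and that of *Phgdh* without transgenic replicate 3 (0.077) and without wild-type replicates 1, 2 and 3 (0.0741, 0.0538 and 0.0783).

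The remaining marker lists were summed in the same way. Endothelial markers gave 156 to 166 FPKM in transgenic and 152 to 158 FPKM in wild-type mice, lymphocyte markers 130 to 188 and 194 to 290 FPKM, and epithelial markers 76.0 to 153 and 115 to 177 FPKM. Of these, 2 endothelial genes were higher and 1 was lower, 1 lymphocyte gene was lower and no epithelial gene was called by limma, with 1 at an unadjusted p under 0.05. Their part in the values of the chaperones and proteases was not tested.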
